A study of Homo sapiens with 4 samples.

Results

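The cells described here are the neural crest-like cells left in a vemurafenib-resistant culture of the established human melanoma line A375, whose *BRAF* gene has the V600E mutation. They were chosen by their UMIs (unique molecular identifiers, 1 for each transcript molecule counted) of *ERBB3*, *HLA-DRA*, *S100B* and *TSPAN13*, called the 4 rule genes below. A cell with at least 3 UMIs of these genes together was taken as crest-like, and a cell with 0 was taken as rest. In the vemurafenib-resistant library (RV) the rule chose 387 crest-like cells and 2904 rest cells out of 4327 filtered cells, and the 1036 cells with 1 or 2 UMIs belonged to neither group. The 4 libraries of the series held 28640 filtered cells. The rule genes lie on chromosomes 12 (*ERBB3*), 6 (*HLA-DRA*), 21 (*S100B*) and 7 (*TSPAN13*), so their UMIs do not come from 1 locus. Their levels in the members follow from the choice and are given only as a description.

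The other libraries came from untreated, drug-sensitive A375 cells (S) and from cells resistant to vemurafenib with cobimetinib (RVC) or with trametinib (RVT). Vemurafenib inhibits the mutant BRAF kinase, and both partner drugs inhibit MEK1/2, the next kinases of the MAPK pathway. The resistant cultures were kept for 10 to 14 days at a dose below the IC50 of their drugs, which were withdrawn 24 h before 10000 cells per condition were loaded for capture, so RV cells had been without drug for 24 h. Every condition is 1 library of 1 line, without a replicate. No difference between groups of cells was therefore tested, genes were called by size alone (at least 1.5-fold), and the ranges in parentheses are exact 95% intervals that cover counting error only.

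The neural crest is a migratory cell population of the embryo that gives rise to melanocytes, Schwann cells and other derivatives. Melanoma cells can take up a crest-like state, marked by the transcription factor SOX10, glial and Schwann cell genes and often the neuregulin receptor ERBB3. The rule genes encode this receptor (*ERBB3*), the alpha chain of the MHC class II molecule HLA-DR (*HLA-DRA*), a calcium-binding protein used as a marker of melanocytic and glial cells (*S100B*) and a tetraspanin membrane protein (*TSPAN13*). MHC class II molecules present peptides to CD4+ T cells and are guided through the cell by the invariant chain CD74. Several crest markers used below had been picked by the study on these same libraries and are no independent evidence.

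The promoters were looked up because MHC class II genes and the invariant chain share promoter elements, among them a Y box with the letters CCAAT, and *CD74* had the largest ratio in the members among genes with at least 20 CPM. Of the 6 genes asked for, *CD74* and *TSPAN13* had an entry, and *ERBB3*, *HLA-DRA*, *S100B* and *SOX10* had none. The sequences are from RefSeq on GRCh38.p14 and run 5′ to 3′ on the strand of the gene, from 250 bases before to 50 bases after its start. Capitals mark CCAAT, the Y-box core, and ACAAAG, a SOX-type core, on either strand.
*CD74*, minus strand, chr5:150412861-150413160: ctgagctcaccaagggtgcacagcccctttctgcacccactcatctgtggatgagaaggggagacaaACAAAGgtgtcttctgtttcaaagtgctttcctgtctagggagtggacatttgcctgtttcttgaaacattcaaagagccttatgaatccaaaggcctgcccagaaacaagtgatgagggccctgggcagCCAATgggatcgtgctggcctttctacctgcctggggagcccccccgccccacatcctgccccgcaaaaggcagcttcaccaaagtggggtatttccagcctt
*TSPAN13*, plus strand, chr7:16753505-16753804: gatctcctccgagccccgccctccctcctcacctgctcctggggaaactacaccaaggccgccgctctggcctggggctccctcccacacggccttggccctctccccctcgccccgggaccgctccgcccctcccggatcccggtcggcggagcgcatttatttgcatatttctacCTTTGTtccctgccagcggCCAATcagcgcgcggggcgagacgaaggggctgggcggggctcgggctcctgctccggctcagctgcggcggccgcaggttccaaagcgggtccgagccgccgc
CCAAT began 53 bases before the start of *CD74* and 54 bases before that of *TSPAN13*. ACAAAG began 183 bases before the *CD74* start, and the *TSPAN13* promoter held it on the other strand, as CTTTGT, beginning 73 bases before the start. AACAAT, another SOX-type core, and the E-boxes CATGTG and CACGTG matched on neither strand of either promoter. Of 34961 promoters of this length, 34.6% held CCAAT, 16.1% ACAAAG, 10.1% AACAAT, 11.1% CATGTG and 7.27% CACGTG on either strand, so these short letters are common. No motif overlapped another.

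Crest-like cells made up 8.94% of the RV cells (8.11% to 9.83%) and 37.2% of the S cells (36.0% to 38.4%), 2489 of 6693. The RV share depended on the rule. Without *HLA-DRA* 171 RV cells reached 3 UMIs instead of 387, and shares at other limits are given in the last section. The rule found 13 of 8307 cells in RVC (0.156%, 0.0834% to 0.267%) and 99 of 9313 in RVT (1.06%, 0.865% to 1.29%). RVC and RVT cells were shallower, with a median of 4099 and 2951 UMIs against 11648 in RV and 8911 in S, and their tables list 33538 gene identifiers against 33694 in RV and S. With each cell thinned to 1500 UMIs, 1.78% of the RV cells had at least 2 rule UMIs (1.41% to 2.22%). The S share was then 8.93% (8.26% to 9.64%), that of RVC 0.127% (0.0607% to 0.233%) and that of RVT 1.24% (1.02% to 1.5%). This left out 403 RVC and 852 RVT cells and no S or RV cell. At this depth the RV share was below that of S, above that of RVC, and its interval overlapped that of RVT. With at least 1 UMI the RV share was 8.78%, against 29.3% for S, 3.12% for RVC and 12.2% for RVT, so RVT then stood above RV. At the limit of 3 the order was the reverse, with 0.532% in RV (0.337% to 0.797%) and 0.142% in RVT (0.0733% to 0.248%). Thinned to 7098 UMIs, where 432 RV and 1594 S cells were left out, 4.36% of RV and 29.1% of S cells had at least 3. A cell type without the rule genes was not present in these cultures, so the part of these shares that free RNA gives was not measured.

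**Figure D1:**
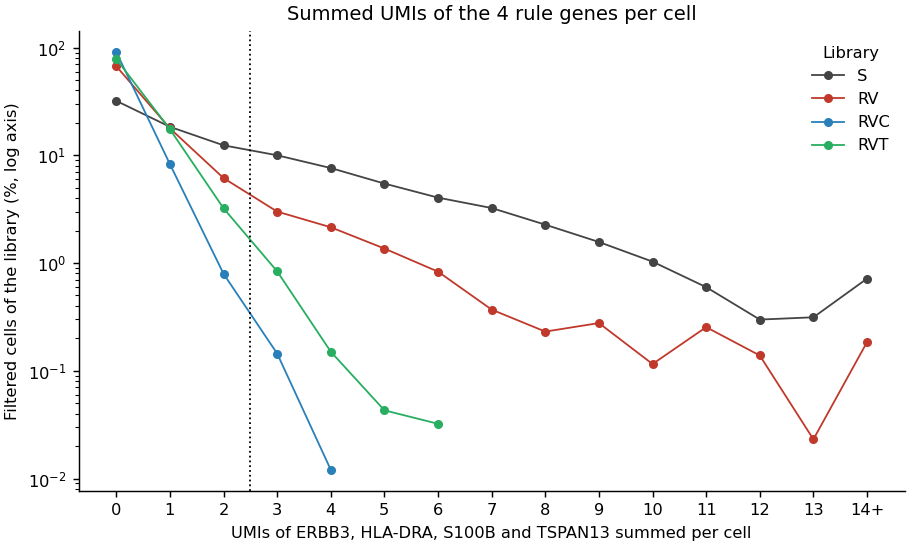
Share of the filtered cells of each library (percent, log axis) by the summed UMIs of the 4 rule genes in the cell, with the dotted line at the limit of 3 and the last point for 14 or more. The RV cells run in a tail from 67.1% at 0 to a cell with 31 UMIs, while RVC ends at 4 and RVT at 6.

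Most RV members had UMIs of more than 1 rule gene, but *HLA-DRA* weighed most in the choice. Of the 387 members, 53 had UMIs of 1 rule gene, 174 of 2, 135 of 3 and 25 of all 4. *HLA-DRA* was seen in 328 of them, *ERBB3* in 246, *TSPAN13* in 172 and *S100B* in 160. By *HLA-DRA* alone 173 members (44.7%) reached 3 UMIs, and this gene gave 53.7% of the members' rule UMIs. The members are 8.94% of the RV cells and carried 60.6% of the library's UMIs of the rule genes, 2005 of 3307. By gene this was 77.8% of the *S100B* UMIs, 72.5% of *HLA-DRA*, 51.0% of *ERBB3* and 35.6% of *TSPAN13*.

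The members were somewhat shallower than the rest, with a median of 10184 UMIs and 2313 genes against 11805 UMIs and 2584 genes. Mitochondrial genes took 3.35% of the UMIs of the members and 3.07% of those of the rest, and ribosomal protein genes 43.7% and 42.6%. Of the members, 16 (4.13%) were among the 150 RV barcodes with the highest doublet scores, and 85 of the rest (2.93%) were. Without these barcodes 8.88% of cells were crest-like. The number 150 came from an assumed rate of 0.8% per 1000 barcodes, and the scorer's own threshold marked 2. RV shared 38 barcodes with S, of which 2 were members and 27 rest cells.

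Each rule gene was also measured in cells chosen by the other 3, at least 3 UMIs against 0, so that it did not choose its own cells. *S100B* had 51.0 CPM (UMIs per 1000000 UMIs of the summed cells) in the RV cells so chosen and 1.41 in the rest, a ratio of 36.3 (26.7 to 50.1). *HLA-DRA* had 195 against 12.3, a ratio of 15.8 (13.8 to 18.1). *ERBB3* had 69.7 against 7.24 (9.64-fold, 8.06 to 11.5), and *TSPAN13* 35.4 against 8.39 (4.22-fold, 3.42 to 5.18). The study had listed rule genes together on these libraries, so these ratios describe the choice and are no independent support for it. In S the same ratios were 10.3 for *S100B*, 5.31 for *HLA-DRA*, 3.14 for *ERBB3* and 3.92 for *TSPAN13*. Against rest cells matched to the members in total UMIs, the RV ratios were 33.1, 24.6, 7.72 and 5.52 in the same order.

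Across all genes, 5829 had at least 10 CPM in the mean of both RV groups, rule genes left out. In the members 309 of them (5.3%) were at least 1.5-fold higher and 359 (6.16%) at least 1.5-fold lower than in the rest. These counts, and which direction held more genes, changed with the limit of rule UMIs, as given in the last section. Against the depth-matched rest, 355 (6.09%) were higher and 410 (7.03%) lower, and 249 of the 309 and 294 of the 359 kept their call. The shares of 5.3% and 6.16% are the background against which the counts of each gene list below are to be read. A gene below 10 CPM in the rest could enter through the members, or the reverse. The call of such a gene follows in part from this filter. The median gene had a log2 ratio of -0.08. With the same genes and rule in S, 217 (3.72%) were higher and 337 (5.78%) lower, and the median was 0.03. These genes were kept by their RV levels alone, so genes low in both RV groups could not enter, whatever their S level.

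The 10 crest markers outside the rule, which the study had picked on these libraries, summed to 1519.7 CPM in the members and 178 in the rest, a ratio of 8.53 (8.25 to 8.83), and had a ratio of 6.85 in S. *CD74* carried most of this sum, and without it the ratio was 5.24 (4.89 to 5.61), 298 against 56.9 CPM. *KRT23*, *MAJIN* and *NME9* had 1 UMI each in the members. *CD74*, *RAMP1* and *SOX10* reached 10 CPM, and all 3 were past 1.5-fold upward, where 5.3% of all genes were. Among the transcription factors of the neural crest, *SOX10*, the factor that specifies melanocytic and glial crest derivatives, stood out. *SOX10* had 103 CPM in the RV members, 30.5 in the RV rest, 119 in the S crest-like cells and 45.9 in the S rest. It was 3.38-fold higher in the RV members than in the RV rest (3.02 to 3.77). The RV members came near the level of the S crest-like cells, which were 1.16-fold higher (1.05 to 1.28). *SOX5*, another SOX family factor, was 4.89-fold higher in the members, 16 against 3.26 CPM.

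The low *SOX6* (4.11-fold, 2.11 to 7.72), *SOX2* (3.11-fold, 1.55 to 5.89) and *TWIST1* (1.86-fold, 1.03 to 3.19) were above the rest too, each with fewer than 20 UMIs in the members. *SOX6* was 7.99-fold against the depth-matched rest. *FOXD3* had 5 UMIs in the members and 3 in the rest, too few for a ratio to be read. Some other crest factors were lower or alike. *MITF*, the factor of the melanocyte lineage, had 9.09 CPM in the members and 22.9 in the rest, 2.52-fold lower (1.84 to 3.53), and in S it was 3.18-fold lower. *SOX9* had 3.77 against 9.65 and *ETS1* 5.77 against 10.4. *TFAP2A*, an early crest factor, had 10.2 CPM in both groups. Of the 18 factors listed, 3 reached 10 CPM, of which *SOX10* was past 1.5-fold upward, *MITF* downward and *TFAP2A* neither way. Of all genes 5.3% were past it upward and 6.16% downward.

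The related *TFAP2B*, on chromosome 6, set RV and S apart. It had no UMI in the RV members, where 3 UMIs are 0.665 CPM, and 1 UMI in the RV rest. In S it had 11.7 CPM in the crest-like cells and 0.242 in the rest. Taken at 3 UMIs, the RV members were 17.6-fold lower than the S crest-like cells, and the counting interval began at 14.2-fold.

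Genes of crest and glial cells were mostly higher in the members. Of 27 listed genes 10 reached 10 CPM, 6 of these were past 1.5-fold upward (5.3% of all genes were) and none downward, and their median log2 ratio was 1.04 in RV and 0.80 in S. *RAMP1*, a partner of the calcitonin receptor-like receptor, had 158 CPM in the members and 25.8 in the rest (6.13-fold, 5.55 to 6.76), beside 172 and 33.2 in S. *COL9A3*, a collagen IX chain, had 346 against 97.8 (3.54-fold). *MIA*, a protein secreted by melanoma cells, had 343 against 132 (2.60-fold). The intermediate filament gene *NES* was 3.23-fold, *CNP*, an enzyme of myelin-forming cells, 2.18-fold, and the semaphorin gene *SEMA3B* 1.95-fold higher.

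Some glial genes whose mean of both groups was below 10 CPM had wider contrasts. *S100A1* had 17.7 CPM in the members and 0.971 in the rest (18.3-fold, 12.2 to 27.9). *FABP7*, a fatty acid-binding protein of glia, had 13.3 against 1.89 (7.05-fold, 4.91 to 10.1). Both were also higher in the S crest-like cells than in the S rest. *NGFR*, the nerve growth factor receptor often used to mark a crest-like state, went the other way, with 4.44 CPM in the members and 11.7 in the rest. The markers were thus divided, with *SOX10*, which the study had picked on these libraries, and several glial genes higher in the members and *NGFR* and *SOX9* lower.

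The MHC class II genes went with the rule gene *HLA-DRA*. Without *HLA-DRA*, the 18 listed genes summed to 1627 CPM in the members and 278 in the rest, a ratio of 5.85 (5.67 to 6.03), and to 1941 and 348 in S (5.57-fold). *CD74* carried most of the sum, and the other 17 genes had 405 CPM in the members and 157 in the rest, a ratio of 2.58 (2.44 to 2.72), and a ratio of 2.81 in S. Of the 6 listed genes that reached 10 CPM, 4 were past 1.5-fold upward and none downward, where 5.3% and 6.16% of all genes were. *HLA-DMA*, 1 of the 4, entered through the members, with 7.55 CPM in the rest, so its call follows in part from the filter. *CD74*, the invariant chain gene on chromosome 5 (150401637 to 150412929), had 1222 CPM in the members and 121 in the rest, 10.1-fold (9.69 to 10.5), the largest ratio of any gene with at least 20 CPM. The depth-matched rest gave 9.19-fold. A member held a median of 12 *CD74* UMIs (quartiles 7 and 18) and a rest cell 1 (0 and 2).

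Next to *CD74* came both chains of HLA-DP and the peptide exchange factor HLA-DM. *HLA-DPA1* had 174 CPM in the members and 33.3 in the rest (5.22-fold), and *HLA-DPB1* 53.4 and 24.7 (2.17-fold). These neighbours overlap on opposite strands. *HLA-DMA* had 47.5 and 7.55 (6.28-fold), while *BRD2*, which overlaps it on the other strand, had 43.9 and 41.7. The low *HLA-DRB1* and *HLA-DRB5*, whose reads are hard to tell apart, had 15.1 and 14.4 CPM in the members against 0.324 and 0.189 in the rest and 0.444 and 0.888 in the depth-matched rest. *CIITA*, the master regulator of class II transcription, had 15 UMIs in the members (3.33 CPM) and 22 in the rest (0.593 CPM), 5.61-fold (2.71 to 11.3). The genes of the factors that bind the X box stayed within 1.5-fold, *RFX5* at 1.19-fold and *RFXANK* at 0.824-fold.

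For MHC class I the ratios were smaller. The class I genes *HLA-B* and *HLA-C* were 1.88- and 1.57-fold higher in the RV members and 2.58- and 2.07-fold higher in the S crest-like cells. *HLA-E* was 1.53-fold and the interferon-induced *IFI35* 1.59-fold higher in the members. The interferon genes *IRF1* (1.01-fold) and *ISG15* (1.02-fold) were within 1.5-fold. Of the 17 class I and interferon genes with at least 10 CPM, 5 were past 1.5-fold upward (4 with the depth-matched rest) and none downward, against 5.3% and 6.16% of all genes.

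Among all genes with at least 20 CPM, the 12 with the largest ratios in the members began with *CD74* and *SLC26A2*, a sulphate transporter gene. *SLC26A2* had 252 CPM in the members and 29 in the rest (8.69-fold, 7.99 to 9.46). *CAPS*, which encodes the calcium-binding calcyphosine, had 151 and 19.7 (7.65-fold, 6.88 to 8.50). In S, *CAPS* was 1.73-fold, with 157 CPM in the crest-like cells and 90.9 in the rest, so its levels in the crest-like cells of both libraries were alike and the RV rest was lower. *SAT1*, the enzyme that acetylates spermidine and spermine, had 450.2 and 78.0 CPM in RV (5.77-fold) and 144 and 63.5 in S (2.27-fold). *TIMP3*, an inhibitor of matrix metalloproteinases, had 124 and 28.7 in RV and 37.1 and 19.0 in S. For these 2 genes it was the RV members that stood apart from all other groups.

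The rest of the 12 were *HLA-DMA*, *RAMP1* and *HLA-DPA1*, given above, the phosphatase gene *INPP5F* (5.22-fold) and the non-coding RNAs *AL035541.1* (5.38-fold), *LINC00326* (4.69-fold) and *FLJ46906* (4.53-fold). *FLJ46906* lies antisense to *NHSL1*, and how strand entered the counting is not given in the sources used here. Each of the 12 was also at least 1.5-fold higher in the S crest-like cells, between 1.73-fold for *CAPS* and 7.94-fold for *CD74*.

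**Figure D2:**
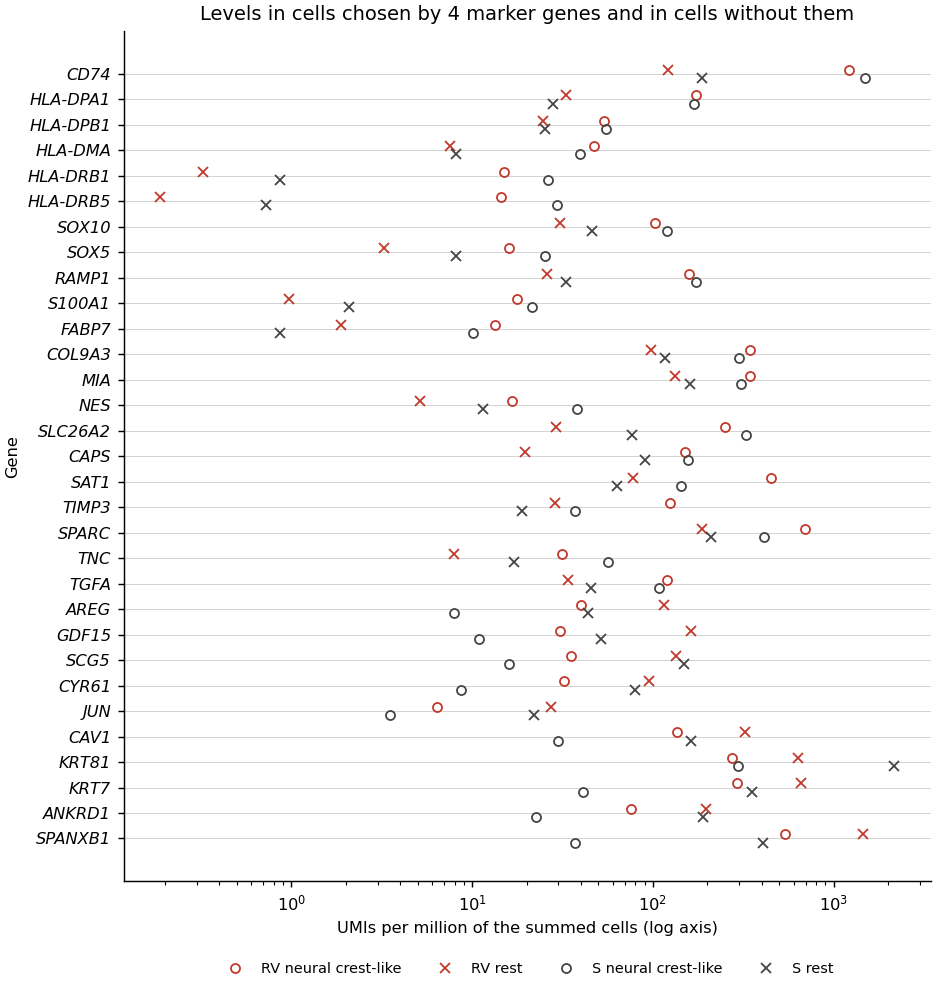
CPM (log axis) of selected genes in the crest-like cells (circles) and the rest (crosses) of RV (red) and S (dark grey), 1 summed value per group. From *CD74* to *TGFA* the circles lie to the right of the crosses, and from *AREG* to *SPANXB1* to the left, with the RV crosses of *SPANXB1* at 1452 and the RV circle at 540.0.

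The 12 genes with the smallest ratios held stress-response genes, secreted factors and a cancer-testis family. *GDF15*, a cytokine induced by cellular stress, had 30.8 CPM in the members and 163 in the rest, 5.28-fold lower (4.46 to 6.29). *NUPR1*, a stress-induced chromatin protein, had 12.9 and 52.3 (4.07-fold lower), and *SCG5*, a chaperone of secretory granules, 35.0 and 133 (3.81-fold lower). In S *NUPR1* was 8.88-fold and *SCG5* 9.24-fold lower in the crest-like cells. The RV and S crest-like cells held similar *NUPR1*, 12.9 and 13.7 CPM.

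Of the secreted factors, *PGF*, placental growth factor, was 3.47-fold lower, *CYR61*, a matricellular target of YAP, 2.96-fold, and *AREG*, the EGFR ligand amphiregulin, 2.88-fold. *AREG* had 39.9 CPM in the RV members and 115 in the RV rest, and in S 7.93 and 43.8. The RV members thus held about as much *AREG* as the S rest. *SNAPC1* was 3.07-fold, *TMEM156* 3.04-fold and *SERINC2* 2.80-fold lower. *SNHG12*, a small nucleolar RNA host gene, was 2.94-fold lower, while *TRNAU1AP*, which overlaps it on the opposite strand, had 19.5 CPM in the members and 20.2 in the rest.

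The size of some of these differences depended on the settings. Over the alternatives run, *SCG5* was 3.13- to 11.3-fold lower, *CYR61* 2.23- to 6.11-fold, *GDF15* 3.39- to 6.75-fold, *NUPR1* 2.67- to 5.25-fold, *PGF* 2.26- to 5.00-fold and *AREG* 2.12- to 4.47-fold. At 5 or more rule UMIs *SCG5*, *CYR61* and *AREG* were at the far end of their range, and *GDF15*, *NUPR1* and *PGF* were at the near end at 2 or more. Of the 12 higher genes *SLC26A2* moved by over 1.5 times, to 13-fold at 5 or more.

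*SPANXB1* and *SPANXC* belong to a family of near-identical sperm proteins on the X chromosome, so that the counting may have split reads between them. *SPANXB1* had 540.0 CPM in the RV members, 1452 in the RV rest, 37.1 in the S crest-like cells and 409 in the S rest. It was 2.69-fold lower in the crest-like cells of RV (2.58 to 2.80) and 11-fold lower in those of S. An RV member held a median of 2 *SPANXB1* UMIs (quartiles 1 and 6) and an RV rest cell 15 (8 and 25). In summed CPM the RV members were above both S groups, but per cell they were like the S rest, which also had a median of 2 UMIs (quartiles 0 and 6).

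The list of keratin-state genes, some of which the study had picked on these libraries, was lower in the members. Its 13 genes, *SPANXB1* among them, summed to 3085 CPM in the members and 5067 in the rest, a ratio of 0.609 (0.598 to 0.619), and to 1671 and 4716 in S, a ratio of 0.354. Of 10 genes with at least 10 CPM, 6 were past 1.5-fold downward and 3 upward, against 6.16% and 5.3% of all genes. *KRT81* had 275 and 636 CPM in RV and 295 and 2154 in S, so its crest-like levels were near each other and its rest levels were not. Reads of *KRT81* and its close copy *KRT86* may not be told apart. *KRT7* was 2.26-fold lower, *KRT80* 2.18-fold, *KRT18* 1.54-fold and *ANKRD1*, a YAP target, 2.57-fold.

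Of the same list the transporter gene *SLCO4A1* (3.40-fold), its antisense RNA *SLCO4A1-AS1* (3.68-fold) and *LCN2*, the siderophore-binding lipocalin (1.81-fold), were higher in the members. The sense and antisense genes may share reads. With the depth-matched rest *LCN2* was 1.43-fold, below the limit.

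**Figure D3:**
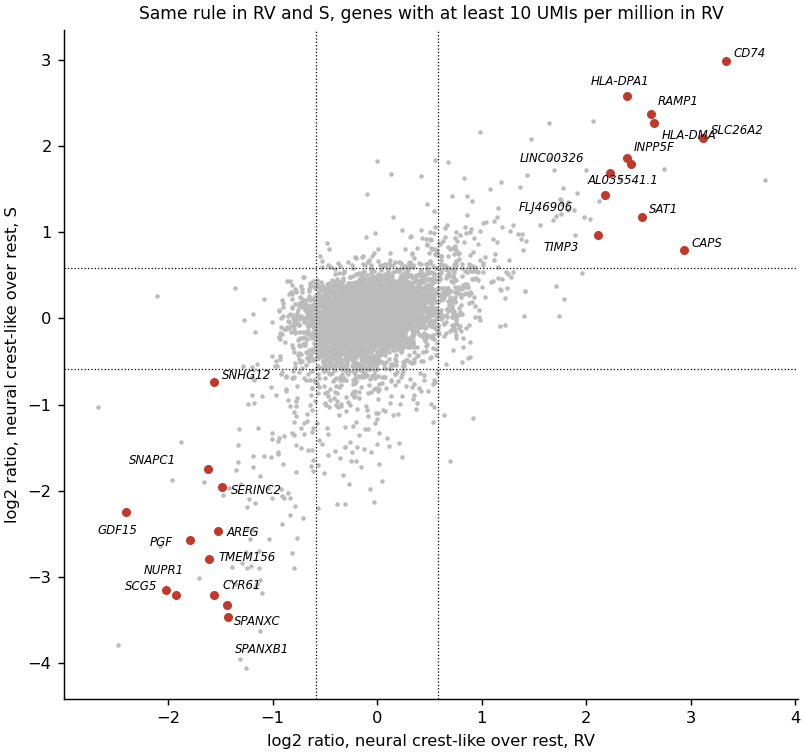
Log2 ratio of crest-like over rest in RV (x axis) and in S (y axis) for the 5829 genes with at least 10 CPM in RV, with the 24 named genes (the 12 largest and 12 smallest RV ratios at 20 CPM or more) in red and dotted lines at 1.5-fold. All 24 lie in the same direction in both libraries, the higher ones in the upper right and the lower ones in the lower left.

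In S the same rule gave a pattern that was partly shared. The study had marked rule genes on these libraries, S among them, so S is no independent check. Of the 309 genes higher in RV, 120 were also past 1.5-fold upward in S. This is 38.8% of the RV genes and, within the 5829 genes kept by RV levels, 55.3% of the S genes. Of all 5829 genes, 3.72% were past 1.5-fold upward in S and 5.78% downward. Of the 359 lower in RV, 135 were past 1.5-fold downward in S (37.6% and 40.1%). Of those lower in RV none was past 1.5-fold upward in S. Of the genes higher in RV 3 were past 1.5-fold downward in S, named here after their values were seen. They were *IL1B*, the cytokine interleukin 1 beta (65.4 and 34.6 CPM in RV, 11.3 and 25.2 in S), the chemokine gene *CXCL1* (97.1 and 59.8 in RV, 64.4 and 203 in S) and *C15orf48* (1.55-fold in RV and 0.458-fold in S). Against the depth-matched RV rest *IL1B* was 1.44-fold, below the limit. Over the 5829 genes the log2 ratios of both libraries had a Pearson correlation of 0.524 and a Spearman correlation of 0.336. These are across genes, which are not independent replicates and share the choice by the same 4 genes.

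The ERBB ligands and receptors did not move together. *TGFA*, an EGFR ligand, was 3.53-fold higher in the members (119.7 against 33.9 CPM), while the EGFR ligands *AREG*, given above, and *HBEGF* (2.25-fold lower) went the other way. The fourth gene of the list with at least 10 CPM, the feedback inhibitor *ERRFI1*, was 0.987-fold. *EGFR* itself had 5.77 CPM in the members and 12.3 in the rest, and *ERBB2*, the partner receptor of ERBB3, 10.9 and 7.17.

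Output genes of the ERK pathway, the target of the drugs, had similar sums. The 20 listed genes summed to 1845 CPM in the members and 1754 in the rest, and of 15 with at least 10 CPM, 1 was past 1.5-fold upward and 3 downward, against 5.3% and 6.16% of all genes. The feedback phosphatase *DUSP6* was 0.904-fold, *DUSP4* 1.46-fold and the feedback inhibitor *SPRY2* 1.42-fold. The ETS factor gene *ETV1* was past the limit at 1.61-fold. Downward were *FOSL1* (1.62-fold), *EPHA2* (1.53-fold) and *MYC*. *MYC* had 5.10 CPM in the RV members and 22.0 in the RV rest, 4.30-fold lower (2.85 to 6.83). In S it had 23.3 and 19.4, so the RV members were the lowest of the 4 groups.

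Of 18 genes of the undifferentiated, AXL-type melanoma state with at least 10 CPM, 8 were past 1.5-fold downward in the members and 3 upward. Of all genes 6.16% and 5.3% were. The median log2 ratio of the 18 was -0.41 in RV and -1.14 in S. The sums differed less, with 4590 CPM of the 24 listed genes in the members and 4935 in the rest. This is a ratio of 0.930 (0.917 to 0.944), and in S the ratio was 0.849. *CAV1*, the caveolae coat gene, had 135 CPM in the members and 321 in the rest (2.38-fold lower), the AP-1 gene *JUN* 6.43 and 27.2 (4.22-fold lower), and *AJUBA* was 2.32-fold lower. *AXL* itself had 129.5 and 179, within 1.5-fold in RV (1.51-fold lower, past it, against the depth-matched rest), and 65.3 and 133 in S. *TNC* (3.99-fold), *BIRC3* (2.01-fold) and *ZEB1* (1.54-fold) were the members of the list past the limit upward. The pigment cell list gave no upward call, and 1 of its 4 genes with at least 10 CPM, *MITF*, was past 1.5-fold downward. The pigment genes *MLANA* and *TYR* had no UMI in the members and *PMEL* had 2.

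Of 13 AP-1 and stress genes with at least 10 CPM, *FOS* was past 1.5-fold upward (1.97-fold) and *JUN* and *ATF3* downward, *ATF3* with 3.33 CPM in the members and 21.3 in the rest (6.39-fold). Of 13 genes of p53 and slow cycling, 1 was past the limit upward (*NEAT1*) and 1 downward (*GDF15*), shares near the 5.3% and 6.16% of all genes. *NEAT1*, a nuclear long non-coding RNA, had 1477 CPM in the members and 648 in the rest (2.28-fold), and in S 528 and 384. The p53 target *CDKN1A* was 1.07-fold and the histone demethylase gene *KDM5B*, a marker of slow-cycling melanoma cells, 1.30-fold.

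Among 14 matrix genes with at least 10 CPM, 6 were past 1.5-fold upward and 2 downward in the members, where 5.3% and 6.16% of all genes were. *TNC* entered this count through the members (31.5 against 7.90 CPM) and *FN1* through the rest (7.76 against 13.3). *SPARC*, a collagen-binding glycoprotein, had 695 CPM in the RV members, 188 in the RV rest, 412 in the S crest-like cells and 210.3 in the S rest (3.70-fold in RV, 1.96-fold in S). *TNC* and *TIMP3* were given above, and the laminin genes *LAMA4* (1.64-fold) and *LAMC1* (1.60-fold) and *COL6A1* (1.59-fold) were just past the limit. With the depth-matched rest *LAMA4* was 1.37-fold and *LAMC1* 1.37-fold, below it. *THBS1* (1.70-fold) and *FN1* (1.72-fold) were lower.

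The families of 2 rule genes were followed as well. Of the S100 genes, *S100A13* (1.75-fold) and *S100A4* (1.68-fold) were past the limit, and the other 6 with at least 10 CPM were within it. Of all genes 5.3% were past it upward. None of 10 tetraspanin genes passed it, with ratios from 0.888 for *TSPAN17* to 1.46 for *CD63*. Of the ID and BMP genes 3 reached 10 CPM and none passed the limit, with *ID1* at 1.37-fold and *ID3* at 1.44-fold (1.55-fold against the depth-matched rest).

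The cell cycle lists had lower sums in the members. The 43 G1/S genes summed to 978 CPM in the members, 1263 in the rest and 1311 in the depth-matched rest, a ratio of 0.774 (0.751 to 0.799). Of 27 with at least 10 CPM, 5 were past 1.5-fold downward (6.16% of all genes were) and none upward. Among the lower ones were the replication licensing gene *MCM5* (1.59-fold) and *GMNN*, which encodes an inhibitor of licensing (1.73-fold). In S the G1/S sum was alike in both groups, 989 and 983. The 54 G2/M genes summed to 2225 and 2538 in RV, with 1 of 38 past the limit downward, a share below that of all genes, and to 1737 and 2322 in S, with 10 past it.

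**Figure D4:**
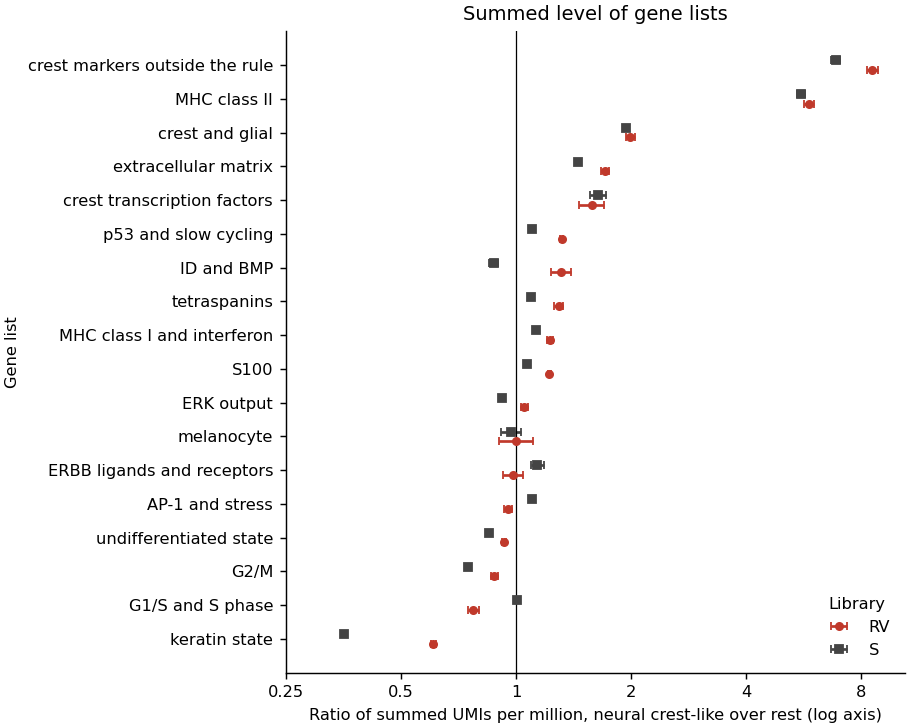
Ratio of the summed CPM of each gene list in crest-like over rest cells (log axis) in RV (red circles) and S (dark grey squares), with exact 95% intervals for counting error, rule genes left out. The crest markers outside the rule (8.53 in RV) and MHC class II (5.85) lie far to the right, and the keratin state (0.609) to the left.

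The summed levels of RV cells shifted with the summed UMIs of the rule genes. Whether single cells were graded or each sum mixed cells of different states was not tested. *CD74* had 121 CPM in the RV cells with 0 rule UMIs, 247 with 1, 494 with 2, 717 with 3, 1080.4 with 4, 1352 with 5 to 6 and 2241 with 7 or more. *SOX10* went from 30.5 to 63.3 at 2 and 164 at 7 or more, and *SPARC* from 188 to 391.8 and 1086. In the opposite direction *SPANXB1* went from 1452 to 909.7 and 262. *GDF15* went from 163 to 70.6 at 2 and 29.7 at 3, and did not go on falling. In S, *SOX10* reached 109.7 at 2 and had 129.9 at 7 or more, so that most of its range lay at low sums, whereas in RV it went up over the whole range. *SPARC* in S went from 210.3 at 0 to 357 at 2 and 447 at 7 or more, below the RV cells of the same sum at 2 UMIs and above.

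**Figure D5:**
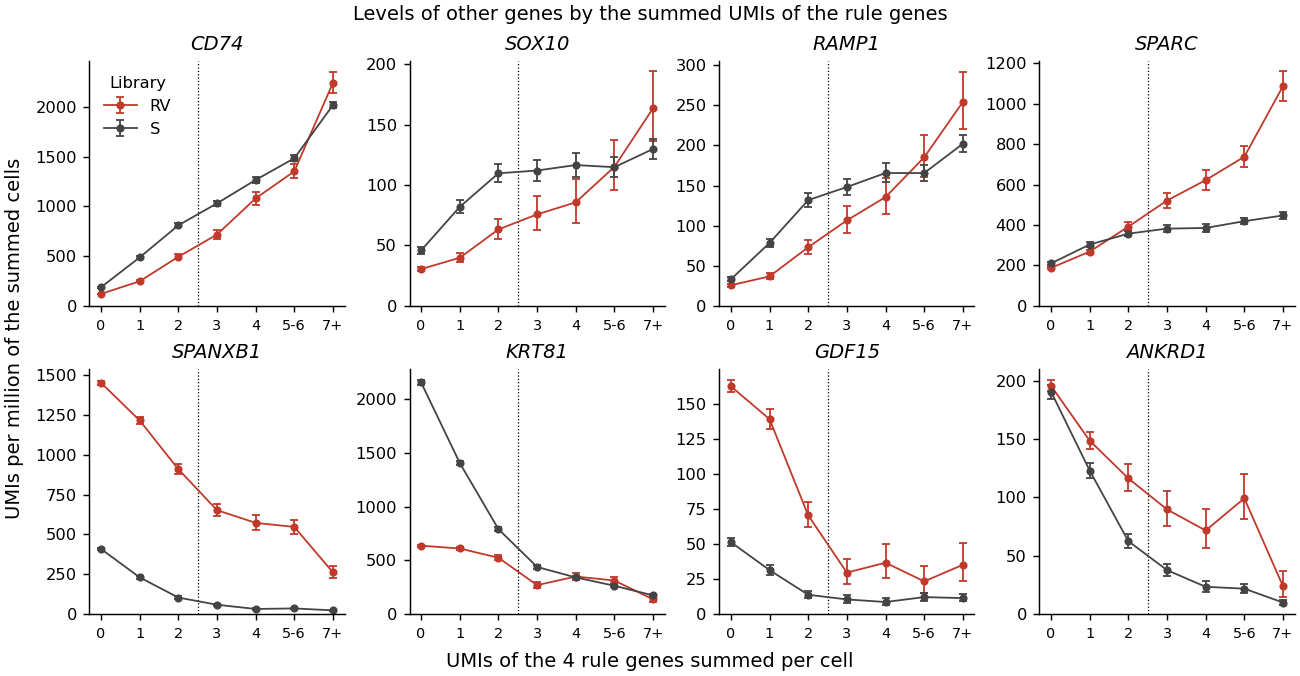
CPM of 8 genes that the rule did not use, by the summed UMIs of the rule genes per cell, in RV (red) and S (dark grey), with exact 95% Poisson intervals and a dotted line at the limit of 3. The first 4 genes end higher than they begin in both libraries and the last 4 end lower, not always step by step, and in RV *CD74* goes from 121 to 2241.

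The limit of 3 UMIs cut through this range. The 130 cells at 3 UMIs, just inside, and the 266 at 2, just outside, had 717 and 494 CPM of *CD74*, 107 and 73.2 of *RAMP1*, and 653 and 909.7 of *SPANXB1*. The median depth was 11805 UMIs at 0, 12068 at 1, 11199.5 at 2, 10520.5 at 3 and 10212 at 7 or more.

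The members were also divided by *HLA-DRA*. In 46 members *HLA-DRA* was the only rule gene seen, 282 had it with another, and 59 had none of it. *CD74* had 1410.4 CPM (1306 to 1521), 1369 (1329 to 1410.3) and 505 (457 to 557) in the order given. Members without *HLA-DRA* thus held less *CD74* than the others and more than the 121 of the rest. *SOX10* had 93.3, 113 and 69.3, *CAPS* 112, 157 and 149, and *MIA* 315, 356 and 306. Members with *HLA-DRA* alone, which the class II gene by itself had chosen, were therefore also above the rest in *SOX10*, *CAPS* and *MIA*.

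The RV members were then set beside the S crest-like cells. Among the same 5829 genes 560 (9.61%) were at least 1.5-fold higher in the RV members and 388 (6.66%) lower. This is a comparison between libraries in which treatment and library cannot be told apart. The genes were kept by their RV levels alone, so genes high only in S, such as *LINC01419*, could not be counted. The higher and lower counts are therefore not read against each other. The rule genes chose the cells in both libraries, so their levels follow from the choice and are no comparison of the members. *HLA-DRA* had 239 CPM in RV members and 256 in S, *S100B* 65.4 and 74.8, *ERBB3* 88.0 and 129, and *TSPAN13* 52.6 and 99.5. *CD74* (1.22-fold higher in S) and *RAMP1* (1.09-fold) were close. The class II gene *HLA-DQB1* was not, with 4.21 CPM in the RV members and 23.4 in the S crest-like cells (5.56-fold, 3.53 to 9.30), while *HLA-DPA1* had 174 and 168. The rest groups also differed in *HLA-DQB1*, with 0.270 CPM in RV and 1.55 in S (5.74-fold).

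Some large differences between the members of both libraries, named after their values were seen, also ran between the rest groups and some did not. *C19orf33* had 539 CPM in the RV members and 32.0 in the S crest-like cells, and 938 and 238 in the rest groups. *RUNX1*, a transcription factor gene, had 67.4 and 8.43, and 58.9 and 14.0 in the rest. *SNRPB2*, a spliceosome protein gene, had 407 CPM in the RV members against 1236 in the S crest-like cells, but 306 and 393 in the rest groups, so this difference lay mostly in the crest-like cells. *LINC01419* had 1 UMI in the RV members and 233 CPM in the S crest-like cells (1052-fold, 189 to 41571), and was as low in the RV rest.

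In the libraries of the drug combinations the chosen cells differed. All 99 RVT cells had *HLA-DRA*, 89 of them no other rule gene, and 96.6% of their rule UMIs were of *HLA-DRA*. They had 924 CPM of *CD74* against 467 in the RVT rest, but 16.7 of *SOX10* against 18.8 and no UMI of *RAMP1*, where 3 UMIs are 7.16 CPM. The 13 RVC cells were chosen by *HLA-DRA* and *TSPAN13* alone. *S100B*, a rule gene, and *SOX10* are listed at 0 in every RVC cell, and *ERBB3* had 13 UMIs in that library, so no level was read from these zeros and the RVC share rests on fewer rule genes. The chosen RVT cells thus had neither the *SOX10* nor the *RAMP1* level of the RV members.

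Markers of other cell types were checked in the members. The 12 immune markers summed to 75.8 CPM in the members and 73.1 in the rest, nearly all of it *CD68* (70.3 and 70.0). *PTPRC*, the pan-leukocyte gene, and *CD14* had no UMI in the members, 7 of the 12 genes were at 0, and *LYZ* had 15 UMIs (3.33 CPM against 0.351). The 8 fibroblast markers summed to 2.66 and 2.43 CPM with 3 at 0, and the 5 endothelial markers to 1.55 and 0.944 with 3 at 0. The 6 keratinocyte markers summed to 272 and 248, with *KRT5* and *TP63* at 0 and *KRT14* at 26.2 and 7.82 (3.35-fold). The class II genes of the members thus stood beside *PTPRC*, *CD14* and 5 other immune markers at 0.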

How the data were processed

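Single cells of 4 A375 cultures, 1 per condition, were captured on the 10x Chromium platform. The deposited tables hold raw UMI counts per gene and barcode, which the authors made with Cell Ranger on GRCh38 after bcl2fastq 2.20.0.422 (per the labels' processing notes). How strand was counted is not given in the sources used here. Barcodes with at least 500 genes and at most 20% mitochondrial UMIs were kept, with no doublet removal in the main setting. UMIs were summed over crest-like (at least 3 rule UMIs) and rest cells (0) and scaled to CPM. Genes whose mean of both groups reached 10 CPM were compared, a gene past 1.5-fold was called, and the 12 largest and 12 smallest ratios at 20 CPM or more were named beside the members of the gene lists. Intervals are exact 95% Clopper-Pearson or Poisson intervals and cover counting error only. With 1 library per condition no p-value was computed. The members and the lists were chosen with earlier results of these data known. Coordinates are from GENCODE 29. Seurat 5.3.0 supplied the cell cycle lists, edgeR 4.0.16 the TMM factors and scanpy 1.11.5 the doublet scores, run with Python 3.11.15, numpy 2.4.6, pandas 2.3.3, scipy 1.17.1, matplotlib 3.10.9 and R 4.3.3. The ratios, the 1.5-fold call and the ratio intervals were tested on simulated group sums with counting error only. Choosing cells and summing over them were not part of this test.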

Additional observations from a re-analysis of the deposited data

Results flagged for a closer look

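The cytokine gene *IL1B* and the chemokine gene *CXCL1* ran in opposite directions in the crest-like cells of the 2 libraries, and these differences were not tested, since each condition is 1 library. *IL1B* had 65.4 CPM in the RV members and 34.6 in the RV rest, a ratio of 1.89, and 11.3 and 25.2 in S, a ratio of 0.450. Against the depth-matched RV rest its ratio was 1.44, within 1.5-fold. *CXCL1* had a ratio of 1.62 in RV and of 0.318 in S, and of 1.70 against the depth-matched RV rest.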

How the results depend on the processing

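Among the 24 named genes and the lists, none past the limit changed direction under the alternatives run, and other genes were not followed one by one. Of the values of the named genes and of the lists not given here, 506 stayed within their counting interval and 198 moved beyond it. The share of crest-like RV cells was 15.1% at 2 or more UMIs and 3.79% at 5 or more, and 6.61% without *ERBB3* in the rule, 3.95% without *HLA-DRA*, 7.74% without *S100B* and 7.28% without *TSPAN13*. Genes past the limit numbered 203 higher and 178 lower at 2 or more UMIs, 508 and 890 at 5 or more, 74 and 91 with at least 50 CPM, 3281 and 6175 with no filter on low genes, and 87 and 76 at 2-fold. The cells chosen or the genes compared differed between these settings, and the fewer cells at 5 or more have a larger counting error. These counts are therefore not read against each other. The MHC class II ratio was 4.43 and 8.20 at 2 and 5 UMIs, 6.58, 4.58, 6.08 and 6.46 without *ERBB3*, *HLA-DRA*, *S100B* and *TSPAN13*, 6.03 without the highest doublet scores, 5.35 with thinned cells, 5.55 with the depth-matched rest, 4.80 with all cells below 3 UMIs as rest, 6.58 with equal weight per cell and 2.58 without *CD74*. The ratio of the crest markers outside the rule was 6.38 and 12.1 at 2 and 5 UMIs, 9.23, 6.33 and 9.44 without *ERBB3*, *HLA-DRA* and *TSPAN13*, 7.68 with thinned cells, 7.80 with the depth-matched rest, 6.36 with all cells below 3 UMIs as rest, 9.30 with equal weight and 5.24 without *CD74*. Leaving out *CD74* was chosen after seeing the data. The left-out ratios with a depth-matched rest, an alternative chosen after seeing the data, were 7.72 for *ERBB3*, 24.6 for *HLA-DRA* and 5.52 for *TSPAN13*. The other alternatives moved these results by less than their intervals or, for counts, by less than 1.5 times, and apart from the settings themselves the cause was not tested. No paired analysis was possible because each condition is 1 library, and for the same reason no replicate could be left out. Differences within the counting intervals were not detectable at this depth.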
